A study of Mus musculus with 20 samples.

Results

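The transcriptome of cultured mouse hippocampal cells was compared between a brief pulse of glutamate given together with zinc and a pulse of medium alone. The comparison holds 10 of the 20 libraries of the series, 5 from cultures given glutamate with zinc and 5 from control cultures, chosen by their labels alone. The zinc-treated cultures received 50 µM glutamate and 10 µM ZnCl2 for 2 min, the controls received control medium for the same time, and both were returned to 37 °C for 90 min before RNA was taken. All cultures were dissociated hippocampal cells of C57BL6 embryos at embryonic day 18, pooled from 4 embryos, used at day 10 in vitro, and all had been kept in 4 µM cytosine arabinoside, which removes dividing cells such as glia, from day 3 to day 6. The other 10 libraries came from cultures given 50 µM glutamate with 10 µM TPA, a chelator of zinc, after 1 min with the chelator, and from cultures given 50 µM glutamate alone. No group analysed here received zinc without glutamate, so the comparison with control gives the combined effect of both agents. The replicates are described as biological, but the tissue was pooled across embryos, so each p-value reflects only how far these libraries differed from each other.

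Glutamate depolarizes hippocampal neurons through AMPA and NMDA receptors, and the calcium that enters drives the rapid transcription of immediate early genes, many of which encode transcription factors of the AP-1, EGR and NR4A families. Zinc is packed into the vesicles of some glutamatergic terminals, above all those of hippocampal mossy fibres, is released with glutamate, inhibits NMDA receptors and can enter the postsynaptic cell. Inside cells a rise in free zinc is sensed by the transcription factor MTF1, which binds metal response elements and switches on metallothioneins and the zinc exporter gene Slc30a1.

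Library totals were 33445137 to 38435627 counts with glutamate and zinc and 36106575 to 39765787 counts in control, and a count of 3 corresponded to at most 0.0897 CPM (the count scaled by library size), a limit that covers counting error only. The totals did not differ beyond the spread between libraries (2-sided exact permutation test, p = 0.167, adjusted p = 0.333 over 2 tests, smallest possible p 0.00794). The 10 most abundant genes held 3.27 ± 0.114% of counts with glutamate and zinc and 3.26 ± 0.0293% in control (SD, n = 5 each; exact p = 0.833, adjusted p = 0.833). Markers of excitatory neurons, GABAergic interneurons and astrocytes were all detected in the authors' TPM values (levels scaled for gene length), the 8 excitatory markers having summed levels of 1435 to 1887 TPM with glutamate and zinc and 1556 to 1754 TPM in control. Defining markers of microglia (Cx3cr1, P2ry12, Tmem119, Itgam), oligodendrocytes (Sox10, Mog, Mag), endothelium (Cdh5, Flt1, Tek) and blood (Hbb-bs, Hba-a1, Alas2) lay at or near 0. Libraries 4 and 5 of the glutamate with zinc group stood apart. Their root mean square distance from their group mean was 0.149 and 0.158 on the log2 CPM scale, against 0.0744 to 0.109 in libraries 1 to 3 of that group and 0.0614 to 0.0874 in the controls. They deviated in opposite directions with transcript GC content: the log2 deviation from the control mean changed by 0.095 per 10% GC in library 4 and by -0.11 in library 5, against -0.078 to -0.043 in libraries 1 to 3 and -0.027 to 0.021 in the controls. Both libraries stay in every result, and beside it the named genes whose call changes without the pair are given with their adjusted p-values in that fit.

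Few transcripts passed the test. Of 14411 genes tested, 6 (0.0416%) differed between glutamate with zinc and control at an adjusted p under 0.05 (edgeR quasi-likelihood test, Benjamini-Hochberg adjustment over all genes). Of these, 3 rose (0.0208%): Nfkbiz, which encodes the nuclear inhibitor and co-regulator of NF-kappaB called IκBζ, the AP-1 gene Fosb, and Hmgb2, which encodes a DNA-bending chromatin protein. The other 3 fell (0.0208%): the tubulin pseudogene Tubb2a-ps2, the cationic amino acid transporter family gene Slc7a4, and Plxna3, a receptor subunit for semaphorin guidance cues. At an unadjusted p under 0.05 there were 771 genes higher (5.35%) and 822 genes lower (5.7%). All 5 zinc libraries lay above all 5 control libraries for 189 genes (1.31%) and below them for 194 genes (1.35%). The number of called genes depended on single libraries: without library 4 of the zinc group it was 43 genes higher and 57 lower, without library 5 it was 5 higher and 3 lower, and without both it was 311 higher (2.13% of 14582 genes tested) and 459 lower (3.15%). These 2 libraries were picked from the data. They also had the smallest medians of the 5 zinc libraries over the rapid immediate early genes described below. The counts, list shares and adjusted p-values without them, here and in later paragraphs, are a description and not a separate test.

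Nfkbiz (chr16:55811377-55838641, minus strand, mm10) stood at 3.12, 3.12, 2.72, 2.84 and 3.14 CPM in zinc libraries 1 to 5 and at 1.55, 1.79, 1.47, 1.66 and 1.66 CPM in control libraries 1 to 5. The groups were far apart, and libraries 4 and 5 did not lag behind the others for this gene. The log2 fold change, called log2 change below, was 0.87 (SE 0.10, adjusted p = 7.72e-05), a 1.83-fold rise. Fosb (chr7:19302696-19310045, minus strand) had 17.7, 16.8, 13.5, 11.8 and 11.8 CPM with glutamate and zinc, against 8.47, 7.17, 8.70, 7.45 and 8.47 CPM in control. Its zinc libraries split, 1 and 2 being highest and 4 and 5 lowest, but the lowest still exceeded every control. Fosb rose by 0.83 on the log2 scale (SE 0.12, adjusted p = 0.00304). Hmgb2 (chr8:57511843-57515999, plus strand) had 3.75, 4.70, 4.43, 4.43 and 4.22 CPM with glutamate and zinc and 2.55, 2.63, 2.26, 2.43 and 2.40 CPM in control. Here library 1 was the lowest of the zinc group and no values overlapped. Hmgb2 rose 1.75-fold (0.81 on the log2 scale, SE 0.12, adjusted p = 0.00304).

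Tubb2a-ps2 (chr12:11882196-11882899, minus strand) had 18.4, 18.2, 17.7, 21.5 and 16.1 CPM with glutamate and zinc, against 24.4, 23.9, 23.8, 23.8 and 23.4 CPM in control. Every zinc library was below every control, with library 4 nearest to them. Its log2 fold change was -0.37 (SE 0.06, adjusted p = 0.0126), and since it is a near copy of the tubulin gene Tubb2a, reads of the pair may have been shared and the call is uncertain. Slc7a4 (chr16:17572018-17576671, minus strand) had 72.0, 66.4, 70.0, 75.3 and 66.5 CPM with glutamate and zinc, against 83.3, 79.6, 82.5, 79.9 and 82.5 CPM in control. Plxna3 (chrX:74329066-74344689, plus strand) had 96.6, 93.6, 88.1, 97.5 and 93.9 CPM with glutamate and zinc, against 117, 103, 112, 105 and 111 CPM in control. The drops were small, and groups did not overlap for either gene. Both genes showed a log2 change of -0.22 (SE 0.04 each), with adjusted p = 0.0151 for Slc7a4 and 0.0418 for Plxna3. Plxna3 lost its call without zinc library 2, 3 or 5 and without control library 1, 3 or 5, with adjusted p between 0.0568 and 0.235. Slc7a4 lost it without zinc library 2 or 3 and without control library 1, 3 or 5 (adjusted p 0.0508 to 0.0739), and Tubb2a-ps2 without zinc library 3 (adjusted p = 0.0508) or control library 1 (adjusted p = 0.0504). The 3 risen genes kept theirs whichever library was left out. The plot of counts by library shows all 6.

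**Figure D1:**
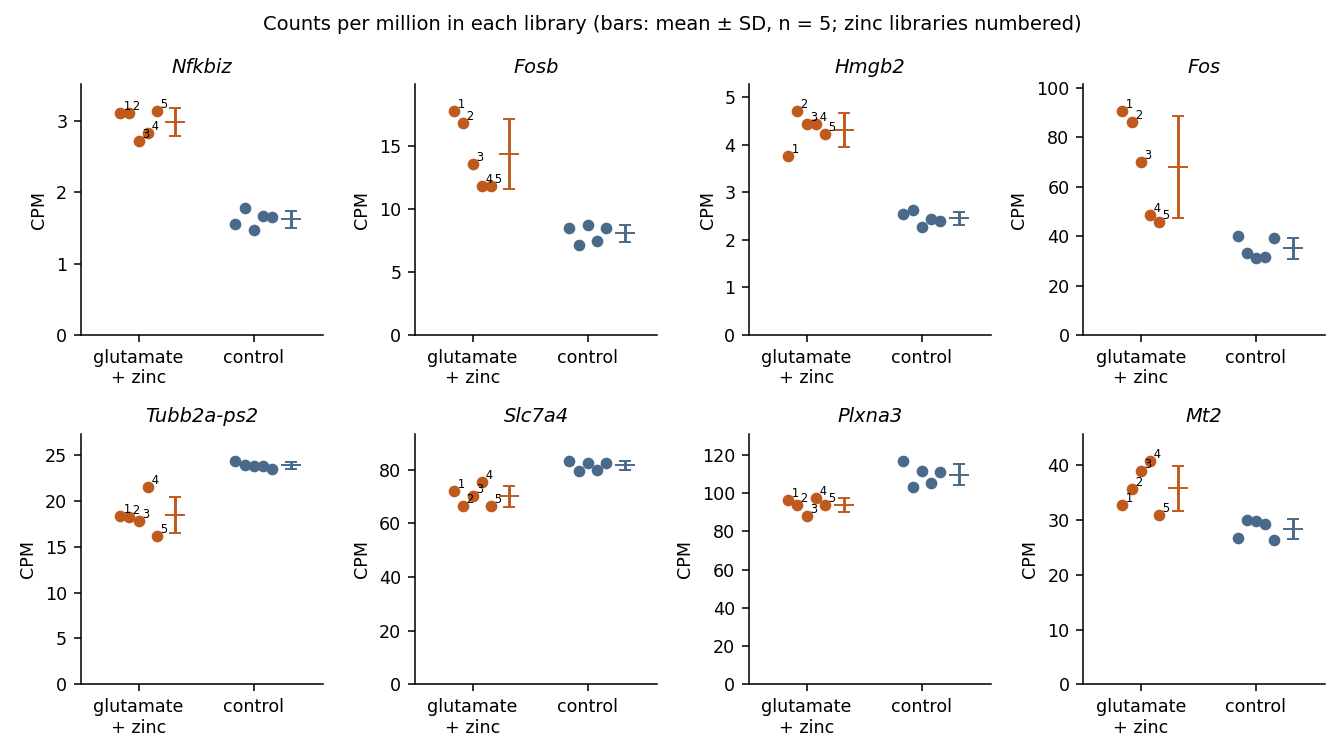
CPM (y axes, from 0) of 8 genes in the 5 glutamate with zinc libraries (left, numbered) and the 5 control libraries (right), with the mean ± SD beside the points. The 3 risen and the 3 fallen genes have no overlap between groups, and for Fos the zinc libraries spread from 45.5 to 90.5 CPM.

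The stretches before the start sites of the called genes are shown because the transcription factors that respond to glutamate and to zinc bind short motifs there. RefSeq windows (GRCm38.p6, 250 bases before to 50 after the start) were at hand for 3 of the 6 called genes and for 10905 of the 14411 genes tested. The metallothionein genes Mt2 and Mt1 and the exporter gene Slc30a1 are shown with them as textbook targets of MTF1, chosen after their values were seen. The 250 bases before each start are given 5′ to 3′ on the gene's own strand, with matches on either strand in capitals.

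Fosb, chr7:19310046-19310295, minus strand: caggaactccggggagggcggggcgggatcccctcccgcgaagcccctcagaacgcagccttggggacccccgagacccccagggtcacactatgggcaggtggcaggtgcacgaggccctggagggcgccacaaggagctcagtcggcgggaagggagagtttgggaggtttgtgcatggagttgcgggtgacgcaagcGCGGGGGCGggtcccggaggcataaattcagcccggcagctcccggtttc

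Hmgb2, chr8:57511593-57511842, plus strand: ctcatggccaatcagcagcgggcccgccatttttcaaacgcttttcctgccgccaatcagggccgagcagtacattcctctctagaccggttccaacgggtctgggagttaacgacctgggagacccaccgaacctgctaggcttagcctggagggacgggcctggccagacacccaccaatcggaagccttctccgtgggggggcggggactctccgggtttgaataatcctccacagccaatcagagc

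Plxna3, chrX:74328816-74329065, plus strand: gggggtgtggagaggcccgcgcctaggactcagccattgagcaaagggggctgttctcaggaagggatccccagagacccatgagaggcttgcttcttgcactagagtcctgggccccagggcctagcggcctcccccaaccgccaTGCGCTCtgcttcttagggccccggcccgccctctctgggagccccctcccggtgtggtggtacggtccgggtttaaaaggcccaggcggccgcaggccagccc

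Mt2, chr8:94172368-94172617, plus strand: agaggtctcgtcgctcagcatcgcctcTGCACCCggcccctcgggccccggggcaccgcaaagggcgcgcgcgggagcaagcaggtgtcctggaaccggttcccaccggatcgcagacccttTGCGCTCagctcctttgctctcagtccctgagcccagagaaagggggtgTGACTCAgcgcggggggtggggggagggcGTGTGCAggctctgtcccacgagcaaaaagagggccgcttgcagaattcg

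Mt1, chr8:94178839-94179088, plus strand: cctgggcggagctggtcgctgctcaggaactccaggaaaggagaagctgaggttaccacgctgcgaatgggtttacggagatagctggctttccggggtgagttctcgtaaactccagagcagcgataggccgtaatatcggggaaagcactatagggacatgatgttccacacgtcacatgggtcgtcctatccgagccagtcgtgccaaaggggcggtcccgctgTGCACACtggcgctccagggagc

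Slc30a1, chr1:191906531-191906780, plus strand: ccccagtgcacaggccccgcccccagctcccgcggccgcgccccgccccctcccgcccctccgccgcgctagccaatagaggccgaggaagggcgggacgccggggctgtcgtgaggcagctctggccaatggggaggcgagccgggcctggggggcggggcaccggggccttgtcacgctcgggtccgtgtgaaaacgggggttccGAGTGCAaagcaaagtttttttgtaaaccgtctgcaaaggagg

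The motifs searched were the cyclic AMP response element TGACGTCA, the AP-1 site TGACTCA, the EGR sites GCGTGGGCG and GCGGGGGCG, the metal response element cores TGCACNC and TGCGCNC, and the serum response element core called the CArG box. In the printed stretches no capitals belong to more than 1 motif. Fosb has 1 EGR site GCGGGGGCG from 50 to 42 bases before the start, a motif held by 5.66% of the 10905 windows. Hmgb2 has no match. Plxna3 has 1 TGCGCNC core, held by 27.9% of windows. Mt2 has the AP-1 site, held by 3.26% of windows, and 3 metal response element cores before its start. Mt1 and Slc30a1 have 1 TGCACNC core each before the start, a motif held by 13.2% of windows. The window shares also cover the 50 bases after the start, which are not printed. Further metal response element cores lie there, in Mt2 from base 5, in Mt1 from bases 3 and 21, and in Slc30a1 from base 31. These matches describe the letters, and binding was not measured.

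Immediate early genes leaned upward, but only Fosb passed the test. Of 31 tested members of a list of 32 rapid immediate early genes, 27 had positive log2 fold changes, and the list median was 0.23, against 0.0016 over all genes tested, where 50.7% were positive. An unadjusted p under 0.05 was reached by 11 members with a positive value and 1 with a negative value. Of all genes tested, 5.35% reached it with a positive value and 5.7% with a negative value. Fos, the partner of Jun in AP-1, had 90.5, 86.0, 69.8, 48.7 and 45.5 CPM with glutamate and zinc, against 40.1, 33.2, 31.0, 31.7 and 39.3 CPM in control. The groups did not overlap, with libraries 1 and 2 highest and libraries 4 and 5 nearest to the controls. Its log2 fold change was 0.96 (SE 0.19, adjusted p = 0.0923). Jun averaged 107 ± 6.26 CPM with glutamate and zinc and 90.8 ± 3.35 CPM in control (log2 change 0.23, SE 0.05, adjusted p = 0.106), Junb 25.5 ± 1.42 CPM with glutamate and zinc and 19.5 ± 1.95 CPM in control (0.39, SE 0.13, adjusted p = 0.301), and the Krüppel-like factor gene Klf4 1.22 ± 0.304 CPM with glutamate and zinc and 0.715 ± 0.132 CPM in control (0.77, SE 0.20, adjusted p = 0.187; SD, n = 5 each). No values overlapped between groups for these genes either. Npas4, an activity-dependent neuronal factor, showed a log2 change of 0.54 (SE 0.16, adjusted p = 0.282), and its groups overlapped, the lowest zinc library at 30.2 CPM and the highest control at 32.7 CPM. Nr4a1, an orphan nuclear receptor gene, showed one of 0.45 (SE 0.19, adjusted p = 0.41), and zinc library 5, at 18.1 CPM, lay below every control. Egr1, at 0.22 (SE 0.11, adjusted p = 0.489), and Arc, whose product acts in synaptic plasticity, at 0.11 (SE 0.13, adjusted p = 0.799), had overlapping groups too. Cyr61, a secreted matricellular early gene, showed a log2 change of 0.72 (SE 0.21, adjusted p = 0.256), with 1 control library above the lowest zinc library. Of 11 tested AP-1 family genes, 10 were positive, with a median of 0.39 that fell to 0.21 without zinc library 2. Fos passed without zinc library 4 (adjusted p = 0.029) or 5 (adjusted p = 0.0399), and Klf4 without zinc library 4 (adjusted p = 0.0455).

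Delayed activity-regulated genes followed the same pattern at a smaller size. Of 32 members, 28 were positive with a median of 0.15, and none passed the adjusted test. An unadjusted p under 0.05 was reached by 5 positive members and 1 negative member, beside 5.35% and 5.7% of all genes. The median was 0.09 without zinc library 2. The growth arrest gene Gadd45g lay between 13.8 and 18.7 CPM with glutamate and zinc and between 11.5 and 12.9 CPM in control (log2 change 0.40, SE 0.13, adjusted p = 0.296). Nrn1, which encodes the membrane-anchored neurite factor neuritin, lay between 60.1 and 70.1 CPM with glutamate and zinc and between 55.8 and 59.3 CPM in control (0.17, SE 0.06, adjusted p = 0.326). For both genes every zinc library lay above every control. Bdnf, the neurotrophin gene, had 182, 192, 177, 135 and 127 CPM with glutamate and zinc, against 148, 139, 122, 129 and 139 CPM in control. Libraries 1 to 3 lay above all controls and libraries 4 and 5 among them, and the log2 fold change of 0.26 (SE 0.13) did not pass (adjusted p = 0.459). Tiparp, an ADP-ribose transferase gene, had 27.2, 30.9, 27.7, 19.5 and 22.7 CPM with glutamate and zinc, against 19.8 to 21.7 CPM in control (adjusted p = 0.331). Library 4 lay below every control and the other 4 zinc libraries above. Of 13 tested inhibitors of ERK signalling, 10 were positive with a median of 0.07, which ranged from 0.02 without control library 4 to 0.16 without zinc library 5. Without zinc libraries 4 and 5 together Tiparp (adjusted p = 0.00795), Nrn1 (0.0377) and Gadd45g (0.0478) passed.

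Genes of the NF-kappaB pathway were measured beside Nfkbiz. Of 12 tested members, 11 had positive log2 fold changes with a median of 0.14, and Nfkbiz alone passed the test. The median was 0.07 without zinc library 2. Nfkbie, which encodes the inhibitor IκBε, averaged 4.80 ± 0.911 CPM with glutamate and zinc and 3.80 ± 0.498 CPM in control (adjusted p = 0.459). The subunit genes Nfkb1, at a log2 change of 0.12 (SE 0.07, adjusted p = 0.552), and Relb, at 0.16 (SE 0.10, adjusted p = 0.563), had overlapping groups. On the per-length scale Nfkbiz was a scarce transcript, with a level of 2.31 ± 0.162 TPM with glutamate and zinc and 1.26 ± 0.0879 TPM in control (SD, n = 5 each). Fosb had a level of 11.4 ± 2.30 TPM with glutamate and zinc and 6.40 ± 0.579 TPM in control. Fos had a level of 97.8 ± 30.3 TPM with glutamate and zinc and 50.2 ± 6.47 TPM in control, the highest of the 3 on this scale.

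Genes of the unfolded protein response and the amino acid response leaned upward as lists. These are the programmes by which cells raise chaperones when protein folding in the endoplasmic reticulum falls behind, and raise amino acid synthesis and transport genes through ATF4. Of 20 endoplasmic reticulum chaperone genes, 19 were positive with a median of 0.20, and 16 had an unadjusted p under 0.05 with a positive value, beside the 5.35% of all genes. None passed the adjusted test, and in only 1 of the 20 did every zinc library lie above every control, beside 1.31% of all genes. Hsp90b1, the chaperone GRP94, had 564, 619, 569, 492 and 463 CPM with glutamate and zinc, against 475, 464, 433, 437 and 413 CPM in control. Libraries 1 to 4 exceeded all controls and library 5 lay among them (log2 change 0.29, SE 0.08, adjusted p = 0.21). The stress transcription factor gene Xbp1 averaged 113 ± 6.54 CPM with glutamate and zinc and 101 ± 3.17 CPM in control (adjusted p = 0.221). The disulfide isomerase gene Pdia3 averaged 335 ± 19.2 CPM with glutamate and zinc and 307 ± 6.63 CPM in control (adjusted p = 0.256), and Manf, a secreted stress-induced factor, 78.5 ± 9.32 CPM with glutamate and zinc and 67.0 ± 2.80 CPM in control (adjusted p = 0.282). All 19 tested genes of the integrated stress response were positive, with a median of 0.17, and 9 had an unadjusted p under 0.05. The median was 0.30 without zinc library 5. Psat1, an enzyme gene of serine synthesis, had 92.1, 105, 94.0, 77.8 and 69.8 CPM with glutamate and zinc, against 72.4, 74.7, 68.2, 68.0 and 57.7 CPM in control (0.36, SE 0.10, adjusted p = 0.221). Library 5 fell inside the control range. The stress factor gene Ddit3 (0.46, SE 0.17, adjusted p = 0.359), the mitochondrial folate enzyme gene Mthfd2 (0.29, SE 0.12, adjusted p = 0.369) and the amino acid transporter subunit gene Slc3a2 (0.17, SE 0.07, adjusted p = 0.381) had overlapping groups too. Cytosolic heat shock chaperones did not lean as far: 15 of 18 were positive, but the median was 0.04 (0.03 without zinc library 4) and no member reached an unadjusted p under 0.05. Hspd1 showed a log2 change of 0.07 (SE 0.03, adjusted p = 0.469) and Hspa8 one of 0.08 (SE 0.06, adjusted p = 0.626).

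**Figure D2:**
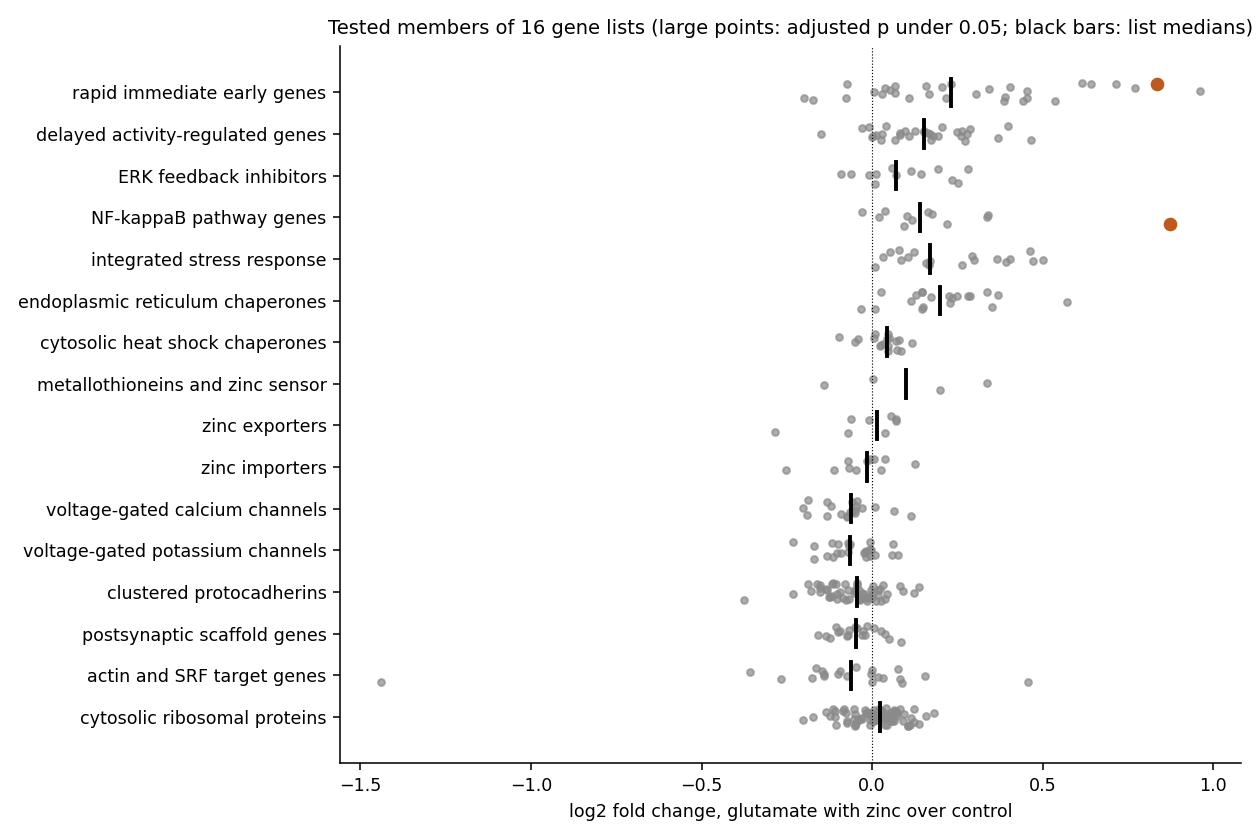
Each point is a tested gene's log2 fold change of glutamate with zinc over control (x axis), in 16 gene lists (rows), with the list median as a black bar and genes past the adjusted threshold as large points. The medians of the early gene and chaperone lists lie at 0.23 and 0.20, those of the channel lists at -0.06, and only Fosb and Nfkbiz are large.

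The tilt of these lists was largest in zinc libraries 1 to 3. The median log2 difference from the control mean over the rapid immediate early genes was 0.44, 0.38, 0.21, 0.17 and 0.01 in zinc libraries 1 to 5, against -0.06 to 0.08 in the controls. For the endoplasmic reticulum chaperones it was 0.24, 0.34, 0.23, 0.13 and -0.05 in zinc libraries 1 to 5, against -0.06 to 0.06 in the controls. For the integrated stress response it was 0.32, 0.35, 0.25, 0.14 and -0.18, against -0.08 to 0.11 in the controls. Library 5 was below the control mean in both stress lists. Without libraries 4 and 5, 10 of 32 rapid early genes were called higher and 1 lower, with 12 of 20 chaperone genes and 8 of 20 integrated stress response genes higher, beside 2.13% of all genes. The delayed list had 4 of 32. In that fit Fos (adjusted p = 0.00438), Npas4 (0.023), Nr4a1 (0.0382), Klf4 (0.0268), Jun (0.0137) and Cyr61 (0.0382) passed, while Egr1 (0.362), Arc (0.857) and Bdnf (0.0517) did not. Of the stress genes, Psat1 (0.0119), Ddit3 (0.0234), Mthfd2 (0.0211), Slc3a2 (0.0459), Hsp90b1 (0.013), Xbp1 (0.0195), Pdia3 (0.0119) and Manf (0.0133) passed in it. Libraries 4 and 5, whose GC deviations had opposite signs, both had smaller medians than libraries 1 to 3 in these 3 lists. Leaving them out therefore raised the fold changes of these lists by construction, and the calls in that fit are no separate support. The fit with a GC offset called 5 genes higher and 3 lower.

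**Figure D3:**
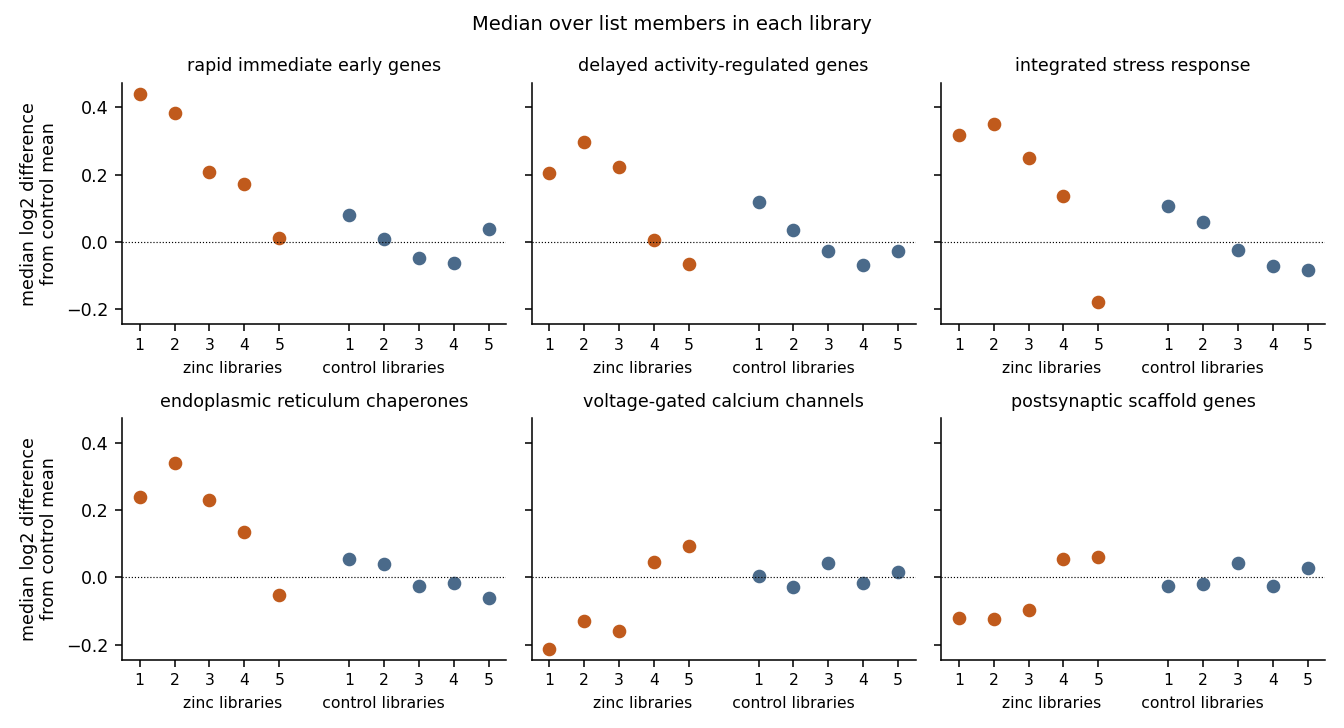
Median log2 difference from the control mean over the members of 6 gene lists (y axis) in each glutamate with zinc library (left in each panel) and each control library (right). Zinc libraries 1 to 3 lie above the controls in the early gene and stress panels and below them in the calcium channel and scaffold panels, and libraries 4 and 5 lie nearer to or beyond the control mean.

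Among zinc-handling genes the metallothioneins gave the largest positive values, and none passed the test. Metallothioneins are small cysteine-rich proteins that buffer zinc. Mt2 had 32.8, 35.6, 39.0, 40.9 and 31.0 CPM with glutamate and zinc, against 26.7, 30.0, 29.8, 29.3 and 26.3 CPM in control. Every zinc library exceeded every control, and library 4 was the highest. The log2 fold change was 0.34 (SE 0.08, adjusted p = 0.173). Mt1 had 56.4, 62.4, 62.2, 65.3 and 51.9 CPM with glutamate and zinc, against 49.3, 53.1, 54.6, 53.2 and 49.6 CPM in control (0.20, SE 0.06, adjusted p = 0.252). Only library 5 fell inside the control range. Without libraries 4 and 5 both passed, Mt2 at an adjusted p of 0.03 and Mt1 at 0.0336, as did the importer gene Slc39a10 described below, with a negative value (0.0469). The brain form Mt3 showed a log2 change of -0.14 (SE 0.09, adjusted p = 0.562), and Mtf1, the zinc sensor gene, averaged 45.7 ± 4.49 CPM with glutamate and zinc and 45.7 ± 1.97 CPM in control. Of 8 tested exporter genes, 4 were positive with a median of 0.01. Slc30a1, the plasma membrane exporter, averaged 44.4 ± 2.75 CPM with glutamate and zinc and 43.3 ± 1.17 CPM in control (0.04, SE 0.06, adjusted p = 0.853). Slc30a3, which loads zinc into synaptic vesicles, showed a log2 change of -0.29 (SE 0.17, adjusted p = 0.556), and Slc30a9 one of 0.06 (SE 0.03, adjusted p = 0.509). Of 11 importer genes, 4 were positive with a median of -0.02, the importer genes Slc39a10 and Slc39a11 with log2 changes of -0.11 (SE 0.06, adjusted p = 0.541) and 0.13 (SE 0.05, adjusted p = 0.416). The exporter median was -0.01 without zinc library 5 and 0.03 without library 1, and the importer median -0.05 without library 4. Of 16 antioxidant genes under NRF2, 9 were positive with a median of 0.01, which was 0.0031 without zinc library 1 and 0.02 without library 5. Hmox1, the haem oxygenase gene, averaged 11.2 ± 3.03 CPM with glutamate and zinc and 8.54 ± 1.24 CPM in control (adjusted p = 0.411), with overlapping groups.

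**Figure D4:**
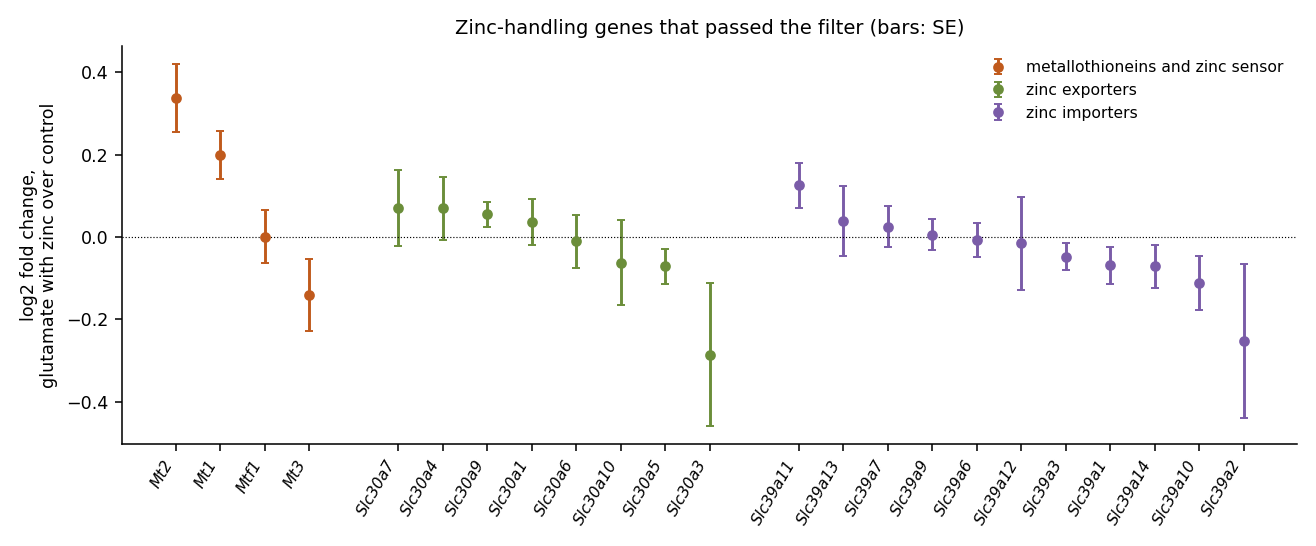
Log2 fold change of glutamate with zinc over control (y axis, points; bars are SE) for each tested metallothionein or sensor gene, exporter gene and importer gene (x axis). Mt2 at 0.34 and Mt1 at 0.20 are the highest, and exporters and importers sit around 0.

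Channel, protocadherin and scaffold genes leaned downward by small amounts, and did so in zinc libraries 1 to 3. Of 20 voltage-gated calcium channel genes, 17 were negative with a median of -0.06, and of 25 potassium channel genes 21 were negative with a median of -0.06. Kcnc1, a fast delayed rectifier subunit gene, had 67.2, 72.1, 69.1, 79.9 and 77.5 CPM with glutamate and zinc, against 88.3, 84.6, 87.7, 80.0 and 89.0 CPM in control. The groups just failed to overlap, library 4 lying nearest to the controls (-0.23, SE 0.06, adjusted p = 0.198). Kcnh3 (-0.17, SE 0.07, adjusted p = 0.369) and the calcium channel subunit gene Cacnb3 (-0.13, SE 0.06, adjusted p = 0.381) overlapped between groups, and the subunit gene Cacnb2 had a positive value (0.11, SE 0.04, adjusted p = 0.342). Of 55 tested clustered protocadherin genes, which encode neuronal recognition molecules that share much of their sequence, 41 were negative with a median of -0.05. Pcdhb2 averaged 6.31 ± 0.859 CPM with glutamate and zinc and 7.39 ± 0.615 CPM in control (adjusted p = 0.372). Of 20 postsynaptic scaffold genes, 15 were negative with a median of -0.05. For scale, the 2082 genes in the fifth highest in transcript GC content had a median of -0.04. The part of GC content in these lists was not tested. Without libraries 4 and 5, 6 of 20 calcium channel genes, 2 of 25 potassium channel genes, 3 of 55 protocadherins and 4 of 20 scaffold genes were called lower, beside 3.15% of all genes. Kcnc1 (adjusted p = 0.0157), Kcnh3 (0.0208), Cacnb3 (0.0367) and Pcdhb2 (0.0274) passed in that fit. Of 21 presynaptic release genes 9 were positive and 12 negative with a median of -0.01, and without the 2 libraries 1 was called higher and 3 lower.

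By library, the median difference from the control mean over the calcium channel genes was -0.21, -0.13, -0.16, 0.05 and 0.09 in zinc libraries 1 to 5, against -0.03 to 0.04 in the controls. Over the protocadherins it was -0.14, -0.11, -0.11, 0.09 and 0.07 in the zinc libraries, against -0.04 to 0.06 in the controls. Over the scaffold genes it was -0.12, -0.12, -0.10, 0.05 and 0.06 in the zinc libraries, against -0.03 to 0.04 in the controls. Libraries 4 and 5 thus lay above the control mean in these 3 lists, and libraries 1 to 3 below every control. The calcium channel median fell to -0.12 without zinc library 5 and stood at -0.03 without library 1. The protocadherin median was -0.08 without zinc library 4 and -0.02 without library 1, the scaffold median -0.08 without library 5 and -0.02 without library 1, and the potassium channel median -0.04 without library 2.

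The receptor gene lists moved little. The median log2 fold change was -0.02 over 6 NMDA receptor subunit genes, 0.03 over 10 AMPA receptor and auxiliary subunit genes, -0.09 over 7 metabotropic glutamate receptor genes and -0.03 over 13 GABA-A receptor subunit genes. With single libraries left out the first became 0.03 without zinc library 1 and the AMPA receptor median -0.0033 without zinc library 5, both a change of sign. The metabotropic receptor median ran between -0.15 without zinc library 5 and -0.04 without library 1, and the GABA-A receptor median between -0.07 without library 5 and -0.0043 without library 4. Cacng3, an AMPA receptor auxiliary subunit gene, had 15.2, 15.2, 14.8, 15.3 and 14.7 CPM with glutamate and zinc, against 12.5, 12.5, 13.5, 12.7 and 10.7 CPM in control. All 5 zinc libraries lay within a narrow band above the controls, and the log2 fold change of 0.28 (SE 0.06) had an adjusted p of 0.0923. Grin2a (-0.18, SE 0.17, adjusted p = 0.743), the presynaptic inhibitory receptor gene Grm2 (-0.25, SE 0.09, adjusted p = 0.326) and Gabra3 (-0.13, SE 0.06, adjusted p = 0.435) overlapped between groups. The 2 vesicular glutamate transporter genes had opposite signs. Slc17a6 had 51.2, 60.5, 51.3, 43.4 and 43.7 CPM with glutamate and zinc, against 42.9, 41.8, 39.0, 39.9 and 39.2 CPM in control (0.30, SE 0.09, adjusted p = 0.217), whereas Slc17a7 averaged 400 ± 44.2 CPM with glutamate and zinc and 455 ± 27.8 CPM in control (-0.19, SE 0.08, adjusted p = 0.379). Both genes are also markers of excitatory neurons, and in bulk RNA fewer cells of a type and less RNA per cell cannot be told apart. Of the 8 excitatory markers 6 were negative, and of 11 GABAergic markers 10 were negative, with medians of -0.07 and -0.06. The excitatory marker median was -0.20, -0.26, -0.11, 0.02 and 0.21 in zinc libraries 1 to 5, against -0.11 to 0.06 in the controls, so it was lower in libraries 1 to 3, as the channel lists were, while the early gene and stress lists were higher there. Its part in those results was not tested. It was -0.14 without zinc library 5 and -0.02 without library 1. Without libraries 4 and 5 together it was -0.21. Of the 8 markers 1 was called higher and 2 lower there, beside 2.13% and 3.15% of all genes. In that fit Slc17a6 (adjusted p = 0.0127), Slc17a7 (0.0284), Cacng3 (0.0284) and Gabra3 (0.0284) passed. The GABAergic median was -0.09 without zinc library 1 and -0.03 without control library 1.

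Several actin-related genes and a long non-coding RNA had negative values short of the threshold. Of 22 actin and serum response factor target genes, 15 were negative with a median of -0.06, and 6 had an unadjusted p under 0.05 with a negative value, beside the 5.7% of all genes. Acta2, smooth muscle actin, had 0.264, 0.536, 0.211, 0.418 and 0.185 CPM with glutamate and zinc, against 0.692, 1.05, 1.04, 0.791 and 0.868 CPM in control. The groups did not overlap, but these are the counts of a rare transcript (log2 change -1.44, SE 0.28, adjusted p = 0.0579). The gene of the actin-sensing coactivator Mkl1 averaged 48.3 ± 2.29 CPM with glutamate and zinc and 54.1 ± 1.78 CPM in control (-0.17, SE 0.04, adjusted p = 0.152). Flna, the actin cross-linker filamin A, averaged 174 ± 11.3 CPM with glutamate and zinc and 210 ± 13.3 CPM in control (-0.27, SE 0.07, adjusted p = 0.205), and Fblim1, a filamin-binding protein gene, showed a log2 change of -0.36 (SE 0.10, adjusted p = 0.203). Miat, a nuclear long non-coding RNA, had 106, 92.7, 90.0, 92.4 and 106 CPM with glutamate and zinc, against 150, 123, 129, 141 and 158 CPM in control. All zinc libraries, 4 and 5 included, lay below all controls (-0.52, SE 0.11, adjusted p = 0.0923). The list of nuclear-retained RNAs gave no common direction, 6 of 11 (Miat included) being positive with a median of 0.02 that changed sign without zinc library 5 (-0.03), and Snhg11 showed a log2 change of -0.22 (SE 0.10, adjusted p = 0.431). In zinc library 4 the median of that list lay 0.49 below the control mean on the log2 scale (-0.49), further than in any other of the 10 libraries. The actin list's median was -0.12 without zinc library 4 and -0.02 without library 1. Acta2 passed without zinc library 2 (adjusted p = 0.0263) or 4 (0.029), and Mkl1 without library 4 (0.0421). Without libraries 4 and 5 together 5 of the 22 actin genes were called lower, beside 3.15% of all genes. In that fit Acta2 (0.0197), Mkl1 (0.0271), Flna (0.0382) and Miat (0.034) passed while Fblim1 (0.0542) did not.

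The medians of housekeeping lists stayed near 0. The median log2 fold change was 0.02 over 80 cytosolic ribosomal protein genes, -0.0025 over 74 nuclear genes of oxidative phosphorylation and 0.02 over 20 cholesterol synthesis genes, and each changed sign with a single library left out (-0.0041 without zinc library 4, 0.02 without zinc library 5 and -0.03 without zinc library 5). Cyp51, a sterol demethylase gene, showed a log2 change of 0.10 (SE 0.03, adjusted p = 0.282). Of 24 glycolysis and hypoxia genes 10 were positive, Vegfa with a log2 change of 0.15 (SE 0.04, adjusted p = 0.198), Hk2 with 0.41 (SE 0.14, adjusted p = 0.322) and Gapdh with 0.22 (SE 0.08, adjusted p = 0.355). Every zinc library lay above every control for Cyp51, Vegfa and Gapdh, but not for Hk2. In the glycolysis and hypoxia list this held for 2 of 24 genes (8.33%), beside 1.31% of all genes. The reverse held for 0 of 24, beside 1.35% of all genes. Of 29 cell cycle genes 16 were positive with a median of 0.02 (-0.04 without zinc library 4), and Hmgb2 alone was called. Nusap1, a spindle protein gene, averaged 2.69 ± 0.312 CPM with glutamate and zinc and 2.00 ± 0.141 CPM in control with no overlap (0.42, SE 0.10, adjusted p = 0.147), and passed without zinc library 4 (adjusted p = 0.0442). Without zinc libraries 4 and 5 together Nusap1 (0.0477), Vegfa (0.0231) and Hk2 (0.0284) passed. Lats2, a kinase gene of the Hippo pathway, showed a log2 change of 0.14 (SE 0.06, adjusted p = 0.379), and the vesicle fusion gene Vamp2 had 0.09 (SE 0.03, adjusted p = 0.365). Fold changes tilted with transcript GC content across genes: over 5 equal groups of genes from low to high GC, the median ran from 0.03 to -0.04.

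The same genes were read in the other stimuli, which were set against the same 5 control libraries. With TPA, 10 genes (0.0694%) passed against control and with glutamate alone 3 genes (0.0208%). Fosb had log2 fold changes of 0.83 with zinc, 1.15 with TPA and 1.22 with glutamate alone (SE 0.12 each). Nfkbiz had 0.87 with zinc, 0.68 with TPA and 0.62 with glutamate alone (SE 0.10 each). Klf4 had 0.77 (SE 0.20) with zinc, 1.68 (SE 0.18) with TPA and 1.56 (SE 0.18) with glutamate alone, and Egr1 had 0.22 with zinc, 0.69 with TPA and 0.39 with glutamate alone (SE 0.11 each). Hmgb2 had 0.81 with zinc, 0.04 with TPA and 0.39 with glutamate alone. Plxna3 had -0.22 with zinc, 0.04 with TPA and -0.14 with glutamate alone. The median over the rapid immediate early genes was 0.23 with zinc, 0.23 with TPA and 0.34 with glutamate alone. Over the endoplasmic reticulum chaperones it was 0.20, -0.03 and 0.15 in the same order. Over the integrated stress response genes it was 0.17, -0.01 and 0.14. No test compared the list medians between stimuli.

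The differences between the stimuli were tested directly, gene by gene. Between glutamate with zinc and glutamate alone no gene passed (0%) in the edgeR test, with 862 genes at an unadjusted p under 0.05. The adjusted p of this difference was 0.741 for Nfkbiz, 0.634 for Fosb, 0.585 for Hmgb2, 0.585 for Tubb2a-ps2, 0.88 for Slc7a4 and 0.831 for Plxna3. Between glutamate with zinc and glutamate with TPA, 74 genes (0.513%) passed, 23 higher and 51 lower with zinc. Hmgb2 was among the higher ones, by 0.77 on the log2 scale (adjusted p = 0.0096), with Cacng3 by 0.34 (adjusted p = 0.0187) and Nusap1 by 0.50 (adjusted p = 0.0291). Plxna3 was lower with zinc than with TPA by a log2 difference of -0.26 (adjusted p = 0.0096), as were Klf4 by -0.91 (0.0199), Miat by -0.66 (0.0175), Flna by -0.45 (0.0112), Fblim1 by -0.46 (0.0363) and Acta2 by -1.34 (0.0363). For Fosb (-0.32, adjusted p = 0.166), Nfkbiz (0.19, adjusted p = 0.309), Egr1 (-0.47, adjusted p = 0.0592) and Mt2 (0.36, adjusted p = 0.0541) the difference from TPA did not pass. Fold changes over control tilted with transcript GC content in opposite directions for zinc and TPA. From the genes lowest to those highest in GC, the group median ran from 0.03 to -0.04 with zinc. With TPA it ran from -0.03 to 0.02. The part of GC content in the 74 calls was not tested. How far these calls depend on single zinc libraries was not tested either.

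**Figure D5:**
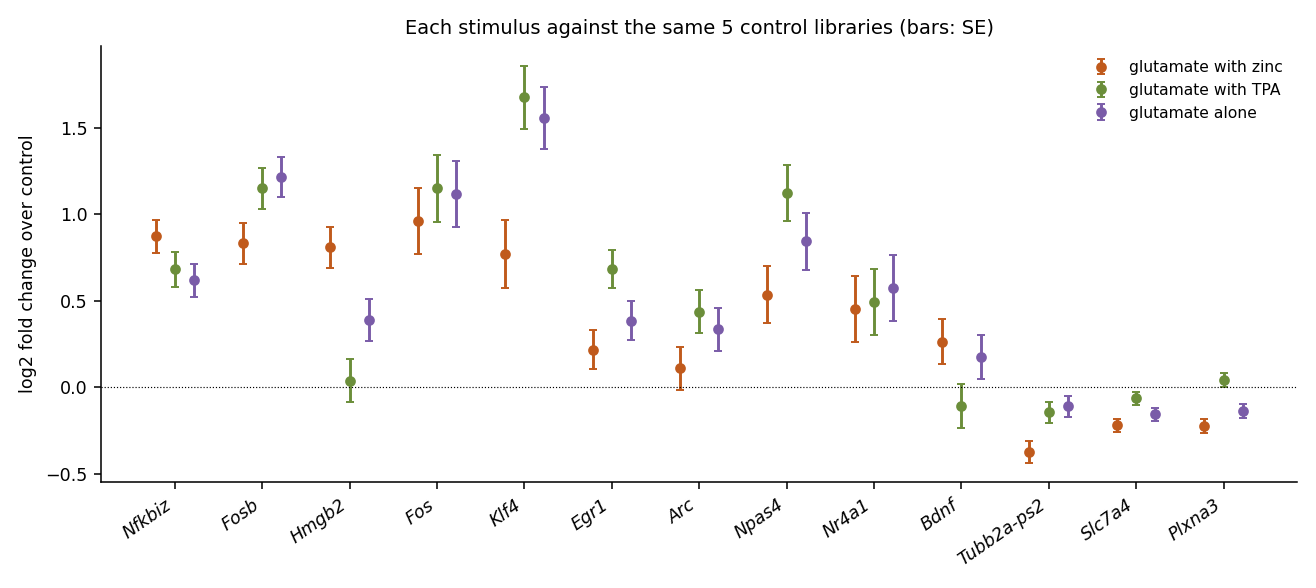
Log2 fold change over the same 5 control libraries (y axis; bars are SE) of 13 genes (x axis) for glutamate with zinc, glutamate with TPA and glutamate alone, from left to right within each gene. With zinc, Klf4 is at 0.77 against 1.68 and 1.56 in the other stimuli, and Hmgb2 is at 0.81 against 0.04 and 0.39.

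The authors' deposited table of this comparison gives adjusted p-values for 10519 genes, of which 17 were higher and 42 lower with glutamate and zinc at an adjusted p under 0.05. Fosb, Tubb2a-ps2, Slc7a4 and Plxna3 were among them. In the authors' deposited table Nfkbiz has p = 4.6e-12 and Hmgb2 p = 1.53e-10, both with no adjusted p. Fos (0.00751), Cacng3 (0.00751), Jun (0.0115), Mkl1 (0.0148), Miat (0.00298) and Mt2 (0.0219) also have adjusted p-values under the threshold in the authors' deposited table, although they missed it in the test made here.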

How the data were processed

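Polyadenylated RNA was sequenced from cultures of 4 groups with 5 libraries each. Per the submitters' processing notes the build was mm10 and the tools were DESeq2 1.14.1, featureCounts, HISAT2 2.1.0, R 3.3.0, SAMtools 1.3.1 and Trimmomatic 0.36. The strand setting of the counting was not given in the sources used here, and genes that overlap, on either strand, may hold each other's reads. The authors deposited whole-number counts for 24419 genes, and only these counts entered a test. The authors also deposited TPM values, used here for levels between genes, and an annotation with gene positions and other values such as length. Their deposited comparison table holds a mean normalized signal, a log2 fold change, a Wald score and p-values with adjusted p-values.

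The filterByExpr function of edgeR 4.0.16 (R 4.3.3) kept 14411 genes with 99.976% of the counts, TMM factors scaled the libraries, and 4 group means were fitted to all 20 libraries in a robust quasi-likelihood model with Benjamini-Hochberg adjustment at 0.05; log2 CPM used a prior count of 2. Each SE was worked back from the test, as the absolute log2 fold change divided by the square root of its quasi-likelihood F statistic. The words rose and fell are kept for genes past the adjusted threshold. Library values were compared by 2-sided exact permutation tests. The fit was tested on simulated counts.

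Named genes are up to 12 of the largest rises and of the largest falls past the threshold, 12 fixed genes, and up to 4 members of each of 43 lists with the smallest p-values. The rule selects 169 genes, of which the text gives 66, picked with their values known; the rest are not reported here. The lists and this rule were chosen with earlier results of these data known. Other settings were DESeq2's size factors, library size alone, DESeq2 1.42.0, limma-voom (limma 3.58.1) with and without library weights, 2 filters, a block on the replicate number, a fit of the 2 groups alone, and leaving out single libraries. A non-robust fit, a loess GC offset (span 0.5) and the fit without zinc libraries 4 and 5 were added after seeing the data.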

Additional observations from a re-analysis of the deposited data

Results flagged for a closer look

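Among 136 sets of 5 library values checked (each named gene in each group, library totals and the 10-gene share), 3 held a library far from the other 4, with a gap over 0.71 of the set's range, where chance gives about 1 in 20. Slc39a10 had 118 CPM in glutamate with zinc library 5, against 94.5 CPM in the next highest of that group. Junb had 22.8 CPM in control library 5, against 19.2 CPM in the next highest control. Tiparp had 19.8 CPM in control library 5, against 21.5 CPM in the next lowest control.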

How the results depend on the processing

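The 3 genes higher were called under every setting except the replicate block with the 2 groups alone, where Fosb was lost (adjusted p = 0.0559). The number higher was 22 with DESeq2, 786 with limma-voom weights per library, 5 with the GC offset and 311 without zinc libraries 4 and 5, and 3 to 43 with single libraries left out. The number lower was 1 with library size alone, 42 with DESeq2, 5 with limma-voom, 1039 with library weights, 1 with the 2 groups alone and 459 without zinc libraries 4 and 5, and 0 to 57 with single libraries left out; it was 0 without zinc library 3 or control library 1 in the edgeR test, with 1106 and 1339 genes at an unadjusted p under 0.05. The weights were 0.2963 and 0.3603 for zinc libraries 4 and 5 and 1.13 to 1.80 for the other 3. Of the 3 genes lower, all lost their call with the 2 groups alone, with or without the block, where the gene called was another; Slc7a4 and Plxna3 lost it with library size alone, and Plxna3 with the GC offset and with a filter at a mean of 1 CPM. The causes were not tested. Across genes, the deviations of zinc and control libraries of equal replicate number correlated at 0.27, 0.372, -0.295, -0.139 and 0.231 for numbers 1 to 5. Libraries of unequal number were not compared in this way, so these values do not settle whether the numbers mark pairs. With the replicate block in all 20 libraries 21 genes were higher and 18 lower, and with the block in the 2 groups alone 1 was lower.

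Of 1517 values of 66 named genes under 23 other settings, 8 changed sign, all of Mtf1, whose value was near 0: -0.0019 with limma-voom, -0.0028 with the replicate block, -0.0032 with the block in the 2 groups alone, -0.0016 with the GC offset, and -0.042 to 0.046 with single libraries left out. A call was gained in 110 of these values and lost in 24. Of 963 list medians, 956 moved by less than 1 SD of the zinc libraries. That SD includes libraries 4 and 5 and can exceed the median itself, so a change of sign can fall within it. For the voltage-gated calcium channels it was 0.13, against a list median of -0.06. The difference in the share of the 10 most abundant genes was -0.022 to 0.044 percentage points with single libraries left out, and -0.0032 for the 50 most abundant genes; it passed the test under none of the settings tried.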
